A study of Mus musculus with 3 samples.

Results

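Integrins are the receptors by which cells hold on to the extracellular matrix and to each other, and focal adhesion components are the proteins that couple them to actin. The set described here held 39 of the 54532 genes in the deposited tables. It was chosen by gene name, with no expression value in the rule but with earlier results of these data known. It comprised 19 chains of matrix-binding integrins (13 alpha and 6 beta chains), 6 chains of leukocyte integrins and 14 focal adhesion components. Every name was found once.

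Each integrin is a pair of 1 alpha and 1 beta chain. The beta1 chain pairs with most of the alpha chains that bind collagen, laminin or fibronectin, whereas the beta2 chain is found on white blood cells and pairs with alphaL, alphaM and alphaX. Talin and kindlin bind the beta chain from inside the cell and switch the receptor on, and vinculin, paxillin, the kinase FAK and the complex of ILK, PINCH and parvin then link it to the cytoskeleton. In the heart, fibroblasts use these receptors to grip the matrix they secrete, and cardiomyocytes attach to the surrounding laminin through their own chains.

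RNA-seq was performed on 3 libraries of cells from adult Myh6-mCherry mice, whose cardiomyocytes express mCherry under the Myh6 promoter. MICFs were cells isolated as cardiac fibroblasts 5 days after myocardial infarction and cultured for 4 weeks without virus. GMTMS-iCMs were MICFs transduced with Gata4, Mef2c, Tbx5, Myocd and Sall4, and the GMTMM cocktail carried Mesp1 in place of Sall4. Both were induced with doxycycline at 1 μg/ml for 4 weeks and sorted for mCherry. For each cocktail 5 sorted samples were mixed before RNA extraction, and no sort is described for the MICFs. Virus, induction, sorting and cocktail therefore cannot be told apart when a transduced library is compared with MICFs. Each condition had 1 library, so none of the differences below has a replicate check and no p-value was computed.

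Library totals lay between 10624118 and 11904484 counts. Sall4 belongs to GMTMS only, yet its counts were 0 in MICFs and 1190 in GMTMS-iCMs, against 1060 in the library named for GMTMM. Mesp1, which belongs to GMTMM only, had 0 counts in all 3 libraries. The library is therefore called "the library labelled GMTMM" throughout, and its values were not tied to a cocktail. Macrophage markers were abundant in all 3 libraries, the sorted ones included, with none of the 13 genes at 0 counts, and fibroblast and endothelial markers were present in MICFs. Neutrophil genes were at or near 0 apart from Csf3r, with S100a9, Ly6g and Retnlg at 0 counts in every library. In bulk RNA, fewer cells of a type and less RNA per cell cannot be told apart.

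A level is log2 (FPKM + 1) after quantile normalization over the 3 libraries, where FPKM are fragments scaled to gene length and library size. A difference is that level in 1 library minus another, and a gene was called higher or lower past a difference of 1. Folds are ratios of the deposited FPKM, and the 95% interval of each (Clopper-Pearson, from the counts) covers counting error alone. Quantile normalization and the deposited FPKM differ in how they treat abundant genes. Without quantile normalization the median of the 1000 most abundant genes was 0.50 for GMTMS-iCMs minus MICFs, and with it -0.13. Of the 39 members, 33 had a mean FPKM of at least 1 and were counted. The other 6 (Itga2b, Itgae, Itgb4, Itgb6, Itgb7 and Ilk) are given by their counts. Values listed in threes are in the order MICFs, GMTMS-iCMs, library labelled GMTMM. The 5 other scalings named below are log2 before quantile normalization, no quantile normalization, TMM, DESeq2 size factors and library totals. They are not 5 separate checks. Log2 before quantile normalization keeps the ranks within each library and nearly repeats the quantile-normalized differences. The FPKM without quantile normalization already carry the DESeq2 size factors.

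Compared with MICFs, GMTMS-iCMs had lower RNA of most collagen and laminin receptor chains and of Itga8, Itgb1 and Itgb3, and higher RNA of the leukocyte chains Itgal, Itgam and Itgax. Of the 33 members counted, 4 were higher (Itgal, Itgax, Itgam and Itgav) and 11 were lower (Itga1, Itga2, Itga3, Itga6, Itga8, Itga11, Itgb1, Itgb3, Itgb5, Ptk2 and Parva). Among all 12406 genes with a mean FPKM of at least 1, 11.5% were higher and 10.5% were lower, so the members' share of higher genes was near that of all genes and their share of lower genes was above it. The matrix-binding integrins had 1 higher and 9 lower of the 16 counted, the leukocyte integrins 3 higher and 0 lower of 4, and the focal adhesion components 0 higher and 2 lower of 13. The median difference over all 19 matrix-binding chains was -1.001, over all 6 leukocyte chains 0.91 and over all 14 focal adhesion components -0.35, beside -0.05 over all genes counted. With DESeq2 size factors the members split into 8 higher and 11 lower, beside 15.6% and 14.6% of all genes, and with library totals into 2 higher and 13 lower, beside 8.29% and 21.7%. Library totals placed the median of all genes counted at -0.39. Of the counted members within the limit, Itga5, Itgb2, Itgb8, Pxn and Tln2 passed it in 3 of 5 other scalings, Itga10 in 2 and Fermt2 in 1.

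**Figure D1:**
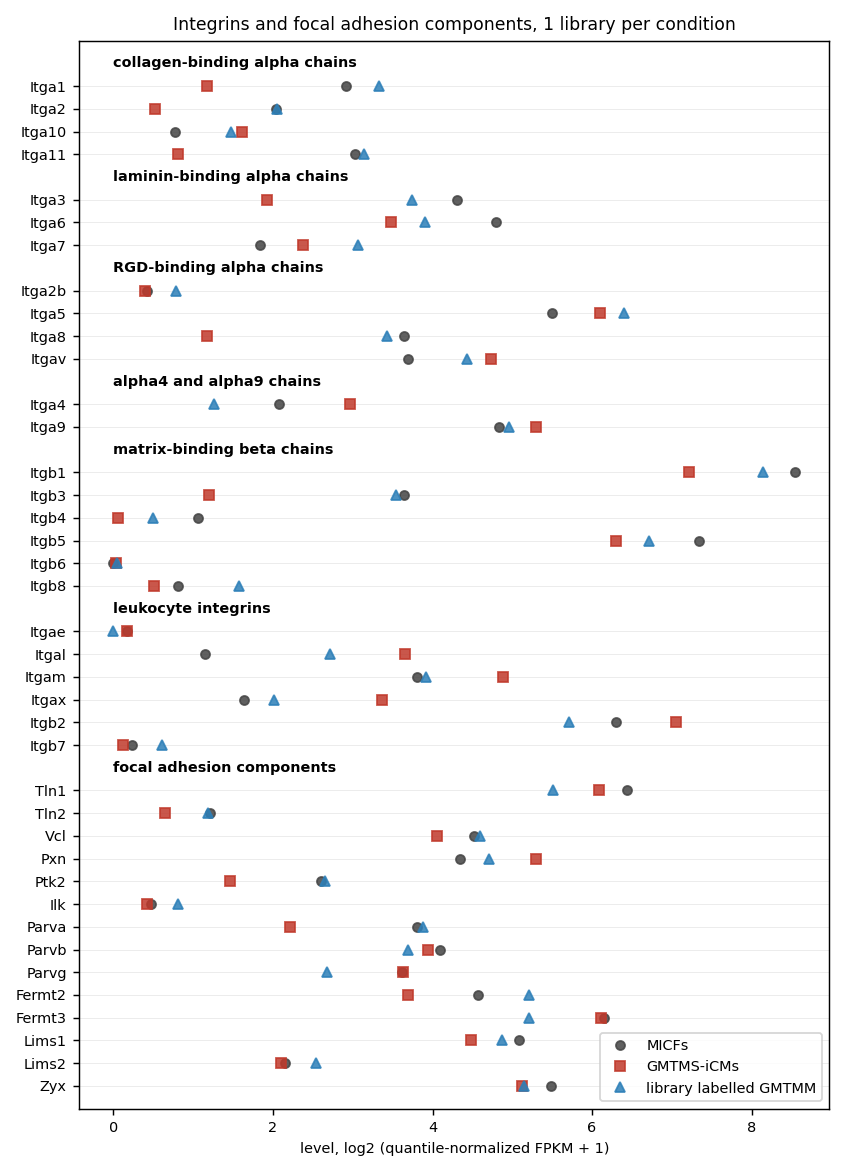
Level of each of the 39 members, as log2 (quantile-normalized FPKM + 1), in MICFs (circles), GMTMS-iCMs (squares) and the library labelled GMTMM (triangles), 1 library each. Squares lie left of both other symbols for Itga1, Itga2, Itga3, Itga6, Itga8, Itga11, Itgb1 and Itgb3, and right of them for Itgal, Itgam, Itgax and Itgb2. Among other members, they also lie right for the matrix-binding Itga4, Itga9, Itga10 and Itgav and for Pxn. They also lie left for Itgb5, Itgb8, Ptk2, Parva and Fermt2, among others.

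Of the 4 collagen receptor chains, 3 were lower in GMTMS-iCMs than in MICFs. Itga1 (alpha1, chromosome 13 from 114953096 to 115101964 on GRCm38), which pairs with beta1 to bind basement membrane collagen, had an FPKM of 6.49 in MICFs and 1.16 in GMTMS-iCMs, against 9.33 in the library labelled GMTMM. GMTMS-iCMs alone were low, 5.57-fold under MICFs (interval 4.81 to 6.48, difference -1.74). Itga11 (alpha11, chromosome 9 from 62677826 to 62783982), the fibroblast receptor for fibrillar collagen, had an FPKM of 7.02 in MICFs and 0.692 in GMTMS-iCMs, against 8.04 in the library labelled GMTMM. That was 10.1-fold lower in GMTMS-iCMs (interval 7.12 to 14.9, difference -2.23), while the library labelled GMTMM differed from MICFs by 0.11. Itga2 (alpha2), another beta1 partner for collagen, followed with 3.23, 0.392 and 3.28 FPKM in the same order and was 8.24-fold lower in GMTMS-iCMs (interval 5.53 to 12.8). Itga10 (alpha10), the collagen receptor best known from cartilage, went the other way. It had 55, 91 and 109 counts, and its FPKM was 2.56-fold higher in GMTMS-iCMs than in MICFs (interval 1.81 to 3.65), although the difference of 0.84 stayed under the limit. Its share of the collagen-receptor FPKM was 4.22% in MICFs and 45.7% in GMTMS-iCMs, against 8.02% in the library labelled GMTMM. Of its exon bases, 33.5% also belong to the predicted gene Gm42957 on the same strand, which had 0 counts in every library, so the level of Itga10 is uncertain.

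Among the laminin receptors, Itga3 and Itga6 were low in GMTMS-iCMs and Itga7 was not. Itga3 (alpha3), a receptor for the laminins of epithelial and vascular basement membranes, had an FPKM of 16.6 in MICFs and 2.56 in GMTMS-iCMs, against 12.8 in the library labelled GMTMM, and was 6.46-fold lower in GMTMS-iCMs than in MICFs (interval 5.42 to 7.77, difference -2.39). Itga6 (alpha6), which pairs with beta1 or beta4, had an FPKM of 22.5, 10.3 and 14.6, so both transduced libraries lay below MICFs, with differences of -1.31 and -0.89. Itga7 (alpha7, chromosome 10 from 128933818 to 128958282) is the main laminin receptor of muscle cells and pairs with beta1. Its FPKM was 2.69 in MICFs and 3.98 in GMTMS-iCMs, against 7.60 in the library labelled GMTMM, and it was the highest in the library labelled GMTMM, 2.83-fold over MICFs (interval 2.47 to 3.24, difference 1.24). In GMTMS-iCMs the difference was 0.54. Its share of laminin-receptor FPKM was 6.43% in MICFs and 23.6% and 21.7% in the transduced libraries. All 6 cardiomyocyte markers were higher in both (median differences 5.03 and 3.67), as were 2 of 4 smooth muscle and pericyte markers in GMTMS-iCMs and 3 of 4 in the library labelled GMTMM. The smooth muscle and pericyte marker Rgs5 was lower than in MICFs in GMTMS-iCMs (difference -2.12) and higher in the library labelled GMTMM (1.67). The part of these markers in the values of Itga7 was not tested.

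The receptors for the RGD sequence of fibronectin and vitronectin were split. Itga8 (alpha8, chromosome 2 from 12106632 to 12301922), which binds nephronectin and other RGD ligands with beta1 and marks fibroblasts and smooth muscle, had an FPKM of 10.8 in MICFs and 1.15 in GMTMS-iCMs, against 10.1 in the library labelled GMTMM. GMTMS-iCMs were 9.36-fold lower than MICFs (interval 7.44 to 11.9, difference -2.47), the lowest difference of all 39 members on the quantile-normalized scale. By the fold in FPKM Itga11 and Itgb4 were lower. Itgav (alphav), which pairs with several beta chains and can release active TGF-beta, had an FPKM of 11.2, 27.8 and 22.0 and stood above MICFs in both transduced libraries, with differences of 1.04 in GMTMS-iCMs and 0.74 in the other. Itga5 (alpha5), the classical fibronectin receptor with beta1, had an FPKM of 35.2, 76.8 and 91.1. Its FPKM too was above MICFs in both transduced libraries, 2.18-fold (interval 2.07 to 2.30) and 2.59-fold (interval 2.47 to 2.72), though its differences of 0.60 and 0.89 were under the limit. Itga2b, the platelet chain that pairs with beta3, had 27, 15 and 48 counts. Of 5 platelet and megakaryocyte markers, Pf4 alone passed the expression minimum, with 592, 1619 and 1075 counts and a difference of 1.45 in GMTMS-iCMs. Gp1ba had 11, 6 and 11 counts, Ppbp had 2, 7 and 7, and Gp9 and Gp6 had at most 4 in any library. Their part in the counts of Itga2b was not tested.

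Promoters of 2 of these low chains are shown so that they can be set beside those of 2 leukocyte chains further on. They are from RefSeq (build GRCm38.p6), read 5′ to 3′ on the strand of the gene, and span its start. Capitals mark GAGGAA, the core letters of sites bound by the blood-cell factor PU.1, on either strand (TTCCTC on the other). The Itga8 window (chr2:12301895-12302194, minus strand) held neither that core nor the AP-1 motif TGANTCA, and the Itga11 window (chr9:62677605-62677904, plus strand) held 1 core, at base 213.
Itga8: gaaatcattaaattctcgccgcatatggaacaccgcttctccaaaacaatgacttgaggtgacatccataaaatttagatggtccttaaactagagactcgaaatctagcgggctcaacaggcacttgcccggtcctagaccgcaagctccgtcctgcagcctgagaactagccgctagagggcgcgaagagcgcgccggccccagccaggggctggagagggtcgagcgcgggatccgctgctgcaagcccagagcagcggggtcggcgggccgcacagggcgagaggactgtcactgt
Itga11: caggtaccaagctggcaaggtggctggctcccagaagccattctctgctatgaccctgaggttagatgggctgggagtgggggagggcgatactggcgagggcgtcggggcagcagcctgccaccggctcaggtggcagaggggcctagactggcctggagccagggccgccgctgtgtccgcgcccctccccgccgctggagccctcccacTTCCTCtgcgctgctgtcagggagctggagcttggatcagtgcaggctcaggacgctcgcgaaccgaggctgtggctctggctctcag

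Itga4 and Itga9, a related pair of alpha chains, were both above MICFs in GMTMS-iCMs. Itga4 (alpha4), which with beta1 binds VCAM-1 and fibronectin and is also carried by leukocytes, had an FPKM of 3.36 in MICFs and 6.69 in GMTMS-iCMs, against 1.42 in the library labelled GMTMM. The transduced libraries lay on opposite sides of MICFs, with differences of 0.89 and -0.81. Itga9 (alpha9), which binds tenascin-C and osteopontin, had an FPKM of 23.2, 42.5 and 32.0, with differences of 0.47 and 0.12.

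Of the matrix-binding beta chains, Itgb1 was the most abundant member in every library. Itgb1 (beta1, chromosome 8 from 128685654 to 128733200) had an FPKM of 269 in MICFs and 172 in GMTMS-iCMs, against 317 in the library labelled GMTMM. GMTMS-iCMs were the lowest, 1.56-fold under MICFs in FPKM (interval 1.52 to 1.61), and the difference after quantile normalization was -1.33. Under 5 other scalings that difference ranged from -1.33 to -0.64 and passed the limit in 2, so the sign held and the call did not. Itgb5 (beta5), a partner of alphav for vitronectin, had an FPKM of 116, 88.1 and 113 and a difference of -1.04 in GMTMS-iCMs, which passed the limit in 1 of 5 other scalings (range -1.03 to -0.39). That scaling was log2 before quantile normalization, which nearly repeats the quantile-normalized value.

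The difference of Itgb3 was larger than that of Itgb1 or Itgb5. Itgb3 (beta3, chromosome 11 from 104608000 to 104670476), the vitronectin receptor chain shared by platelets, endothelium and fibroblasts, had an FPKM of 10.8 in MICFs and 1.204 in GMTMS-iCMs, against 11.1 in the library labelled GMTMM. It was 8.94-fold lower in GMTMS-iCMs than in MICFs (interval 6.96 to 11.7, difference -2.44) and about level between the other libraries. Itgb8 (beta8), which with alphav activates latent TGF-beta, had 125, 39 and 260 counts. It was highest in the library labelled GMTMM, 2.56-fold over MICFs (interval 2.06 to 3.20), and lowest in GMTMS-iCMs. Itgb4, the hemidesmosome chain of epithelia, was counted 115 times in MICFs and 2 times in GMTMS-iCMs, against 35 in the library labelled GMTMM. Itgb6, an epithelial partner of alphav, had 0, 1 and 3 counts, too few for any comparison. Of 5 epithelial markers, Krt18 alone passed the expression minimum, with 8, 100 and 140 counts and differences of 2.63 and 2.73 from MICFs. Cdh1 had 0, 35 and 7 counts and Krt8 had 0, 5 and 20, while Epcam and Krt5 had at most 1 count in any library. Their part in the counts of Itgb4 and Itgb6 was not tested.

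Fibroblast and endothelial markers were set beside the matrix-binding chains, of which 12 of 19 lay below MICFs in GMTMS-iCMs and 7 above. All 7 fibroblast markers were lower in GMTMS-iCMs than in MICFs (median difference -3.04), with summed FPKM of 1338 in MICFs and 194 in GMTMS-iCMs, against 2520 in the library labelled GMTMM, and none at 0 counts. All 5 endothelial markers were lower too (median difference -5.20), with summed FPKM of 381, 11.05 and 292, and none at 0 counts. In the library labelled GMTMM the median difference was 0.25 for fibroblast and -0.87 for endothelial markers, beside 0.04 for the matrix-binding chains. The part of these markers in the lower matrix-binding chains was not tested. Relative to Col1a1, the collagen I chain that fibroblasts make, the FPKM of Itga11 was 0.0254 in MICFs and 0.0128 in GMTMS-iCMs, against 0.0121 in the library labelled GMTMM, so this ratio did not follow the level of Itga11 across the libraries. For Itga1 the same ratio was 0.0234, 0.0215 and 0.0140, nearly level between MICFs and GMTMS-iCMs. For Itga8 it was 0.0390, 0.0213 and 0.0152 and for Itgb3 0.0389, 0.0222 and 0.0167. Both were below MICFs in each transduced library, as was Itga11.

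**Figure D2:**
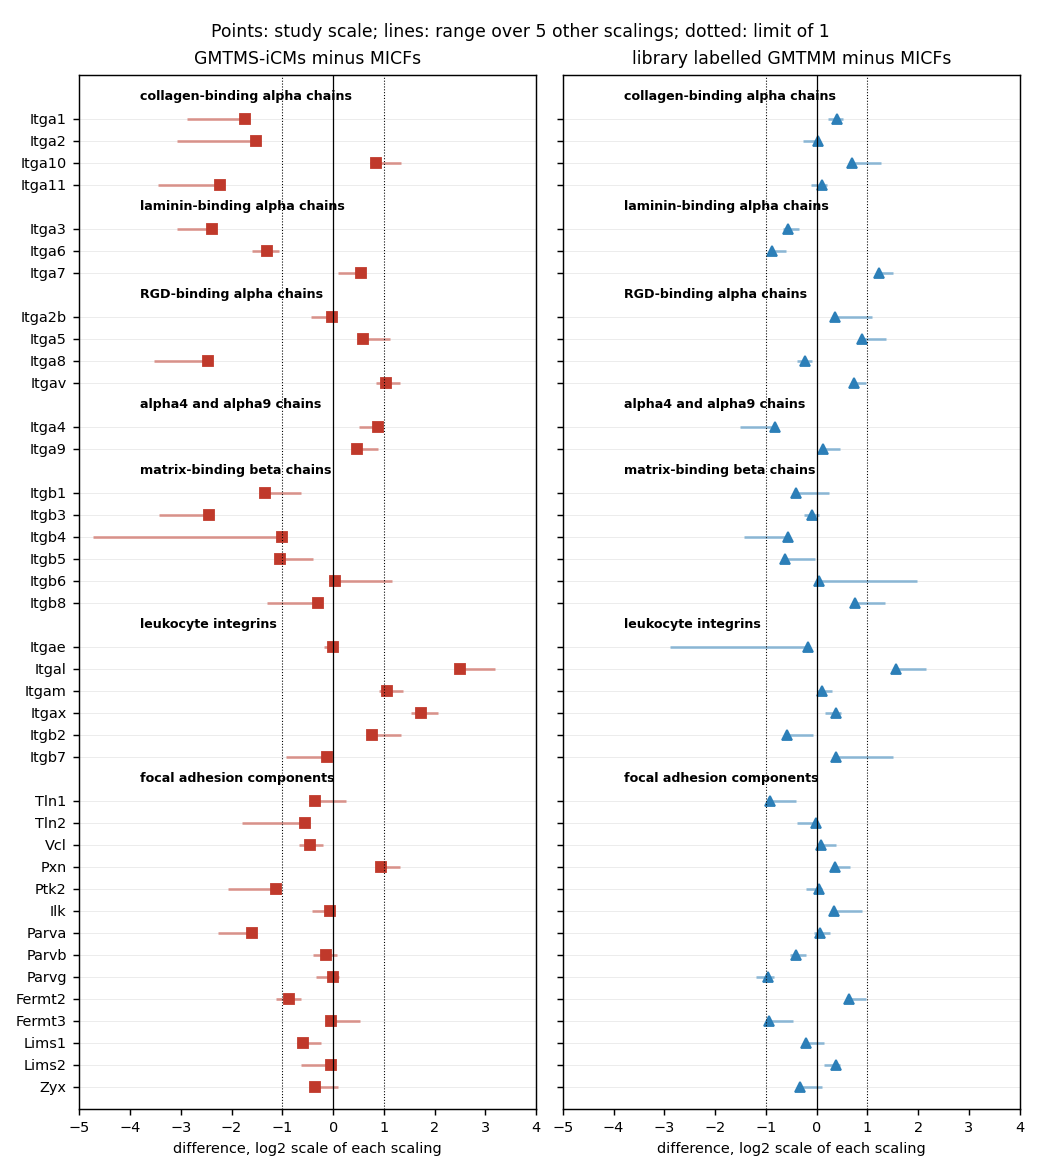
Difference of each member from MICFs in GMTMS-iCMs (left) and in the library labelled GMTMM (right), with the log2 (quantile-normalized FPKM + 1) value as the point, the range over 5 other scalings, each on its own log2 scale, as the line and the limit of 1 on either side dotted. On the left the lines of Itga1, Itga2, Itga3, Itga6, Itga8, Itga11, Itgb3, Ptk2 and Parva stay below -1. That of Itgb4, which was under the expression minimum, does so narrowly. The lines of Itgal and Itgax stay above 1. On the right those of Itgal and Itga7 alone stay wholly outside the limits.

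The chains alphaL, alphaM, alphaX and beta2 of the leukocyte integrins were highest in GMTMS-iCMs. Itgal (alphaL, chromosome 7 from 127296260 to 127335138), the LFA-1 chain that binds ICAM-1, had 122 counts and an FPKM of 1.29 in MICFs, 725 counts and 11.9 in GMTMS-iCMs, against 442 counts and 5.76 in the library labelled GMTMM. Both transduced libraries were above MICFs, 9.21-fold (interval 7.59 to 11.2) and 4.46-fold (interval 3.64 to 5.50), and the difference of 2.51 in GMTMS-iCMs was the highest of all 39 members on the quantile-normalized scale. Itgax (alphaX, chromosome 7 from 128129547 to 128150657), the CD11c chain of dendritic cells and some macrophages, had an FPKM of 2.24, 9.44 and 3.14. GMTMS-iCMs stood above the other libraries, 4.21-fold over MICFs (interval 3.49 to 5.09, difference 1.74).

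Itgam (alphaM, chromosome 7 from 128062640 to 128118491), the CD11b chain of macrophages and neutrophils, had an FPKM of 11.98 in MICFs and 31.1 in GMTMS-iCMs, against 14.8 in the library labelled GMTMM. It was 2.60-fold higher in GMTMS-iCMs than in MICFs (interval 2.39 to 2.83, difference 1.07), and with library totals the difference was 0.90. Of its exon bases, 68.7% also belong to Gm49368 on the same strand, which had 0 counts in every library, so its level is uncertain. Itgb2 (beta2, chromosome 10 from 77530252 to 77565708), the CD18 chain these alpha chains share, had an FPKM of 59.6, 151 and 56.7. GMTMS-iCMs were 2.54-fold over MICFs (interval 2.42 to 2.67) and the other pair was nearly level, but after quantile normalization the difference of 0.76 was under the limit. Itgae, the alphaE chain of T cells in epithelia, had 8, 5 and 0 counts, and its partner Itgb7 had 7, 2 and 18. With so few counts no order could be read from either.

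Within the beta chains, beta1 and beta2 took different shares in the libraries. Itgb1 made up 58.8% of the summed beta-chain FPKM in MICFs and 41.6% in GMTMS-iCMs, against 63.3% in the library labelled GMTMM. Itgb2 made up 13.0%, 36.6% and 11.3%, so the ratio of Itgb2 to Itgb1 was 0.221, 0.880 and 0.179. The summed FPKM of leukocyte chains was 0.139, 0.466 and 0.123 times that of the matrix-binding chains. GMTMS-iCMs stood apart in each of these ratios and the library labelled GMTMM lay close to MICFs. Among the alpha partners of beta2, Itgal made up 8.32% in MICFs and 22.7% and 24.3% in the transduced libraries, and Itgam 77.2%, 59.4% and 62.5%.

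Macrophage markers lay beside this result. Their summed FPKM was 11084 in MICFs and 22884 in GMTMS-iCMs, against 10783 in the library labelled GMTMM. Of the 13 genes, 3 were above and 0 below the limit in GMTMS-iCMs against MICFs (Cd14, Spi1 and Ptprc, median difference 0.27), whereas 1 was higher (Cd14) and 2 were lower (Csf1r and Mrc1) in the library labelled GMTMM (median -0.65). These differences are quantile-normalized, and many of the markers are abundant. In deposited FPKM all 13 were above MICFs in GMTMS-iCMs, by 1.64-fold to 14.2-fold. In the library labelled GMTMM they ranged from 0.733 to 6.44 times MICFs. The part of these markers in the higher leukocyte chains was not tested. Relative to Ptprc, the pan-leukocyte CD45, the FPKM of Itgb2 was 4.34 in MICFs and 3.72 in GMTMS-iCMs, against 4.66 in the library labelled GMTMM, whereas that of Itgal was 0.0939, 0.292 and 0.474. The Itgal ratio was above that of MICFs in both transduced libraries, and the Itgb2 ratio was below it in one and above it in the other. Relative to Csf1r, the Itgb2 ratio was 0.194, 0.256 and 0.252, above MICFs in both. The Itgal ratio to Csf1r was 0.00421, 0.0201 and 0.0256. The order of the Itgb2 ratio thus depended on the marker, whereas Itgal was above MICFs with either. Itgax was too, with 0.163, 0.232 and 0.258 to Ptprc and 0.00731, 0.0159 and 0.0139 to Csf1r. Itgam went as Itgb2 did, with 0.872, 0.764 and 1.22 to Ptprc and 0.0390, 0.0526 and 0.0658 to Csf1r. Of 5 markers of T cells, which also carry alphaL, Cd4 alone passed the expression minimum, with 241, 508 and 229 counts and a difference of 1.48 in GMTMS-iCMs, where Itgal was also higher. Cd3e had 4, 4 and 57 counts, Cd3g 5, 4 and 53, Cd3d 3, 0 and 30, and Cd8a 1, 1 and 63. The part of these markers in the level of Itgal was not tested.

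**Figure D3:**
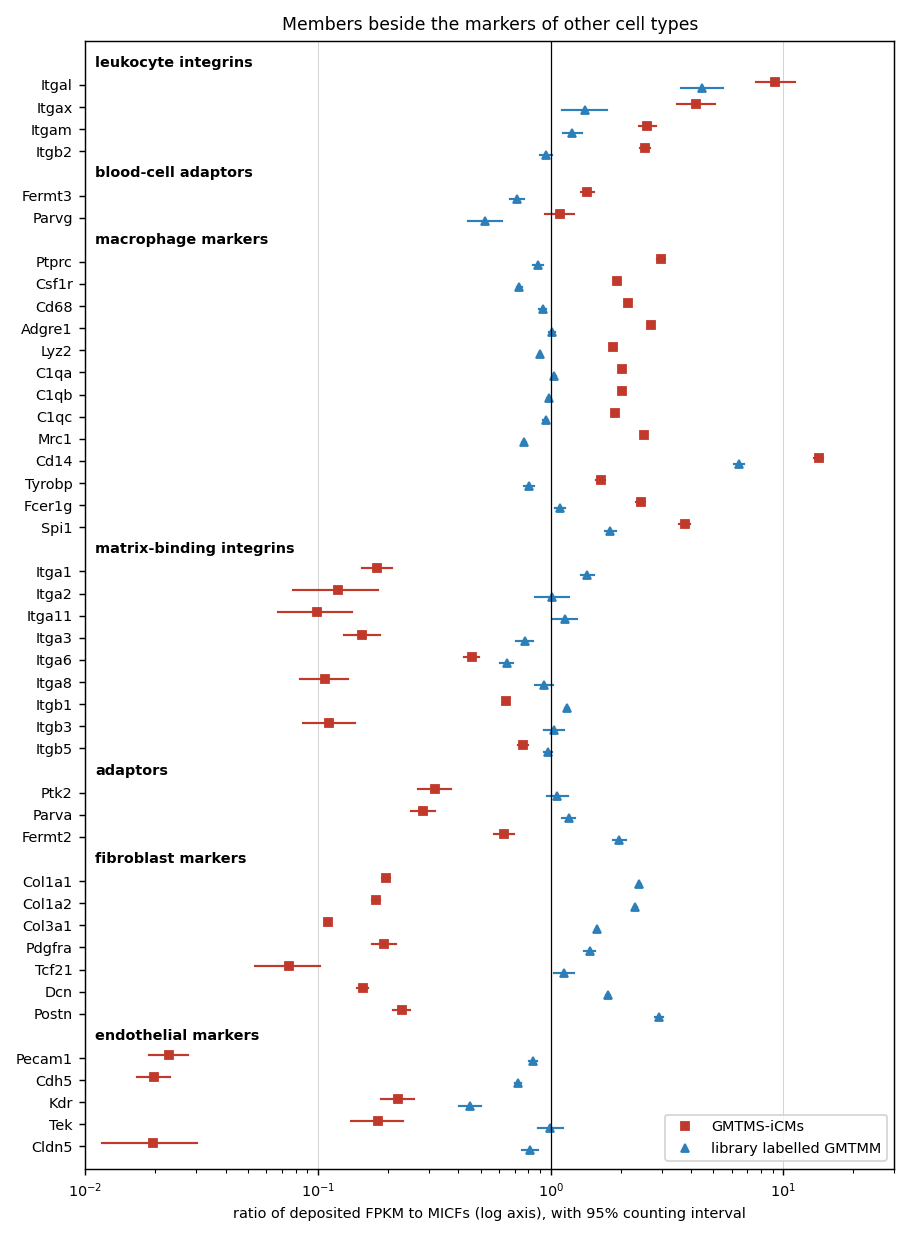
Ratio of deposited FPKM to MICFs (log axis, bars are 95% counting intervals) in GMTMS-iCMs (squares) and the library labelled GMTMM (triangles), for members and for markers of macrophages, fibroblasts and endothelium. In GMTMS-iCMs all 5 endothelial and all 7 fibroblast markers lie left of 1, and the macrophage markers lie right of it. Only some members are drawn, so the figure does not show a full split by class. The matrix-binding chains drawn lie left of 1, and Itgal, Itgax, Itgam and Itgb2 lie right of it. Not drawn are Itgav (2.49), Itga10 (2.56), Itga5 (2.18), Itga4 (1.99), Itga9 (1.83) and Itga7 (1.48), all above 1. Itga2b, Itgb4 and Itgb8, also not drawn, were below 1.

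The promoters of 2 leukocyte chains from one cluster on chromosome 7 are shown for comparison with those of Itga8 and Itga11. RefSeq promoters were found for 27 of the 39 members, and none was found for Itgal, Itgb2 or Itgb3. The Itgam window (chr7:128062390-128062689, plus strand) held the core GAGGAA at bases 167, 236 and 283, counted from the 5′ end. The Itgax window (chr7:128129300-128129599, plus strand) held no such core and 1 AP-1 motif TGANTCA, at base 195, in capitals.
Itgam: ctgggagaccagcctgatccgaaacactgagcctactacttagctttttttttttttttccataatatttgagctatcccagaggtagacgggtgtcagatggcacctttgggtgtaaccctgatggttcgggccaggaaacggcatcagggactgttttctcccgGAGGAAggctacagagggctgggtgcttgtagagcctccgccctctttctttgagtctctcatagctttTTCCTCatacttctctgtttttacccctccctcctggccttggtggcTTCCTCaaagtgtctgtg
Itgax: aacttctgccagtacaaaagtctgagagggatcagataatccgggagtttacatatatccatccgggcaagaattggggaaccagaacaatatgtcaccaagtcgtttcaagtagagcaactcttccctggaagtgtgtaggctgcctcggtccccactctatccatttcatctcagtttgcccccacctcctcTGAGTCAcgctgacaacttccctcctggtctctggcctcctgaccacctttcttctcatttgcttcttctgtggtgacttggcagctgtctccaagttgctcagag

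Over all members with a promoter, GAGGAA was found on either strand in 2 of 3 leukocyte chains, 7 of 15 matrix-binding chains and 3 of 9 focal adhesion components, beside 28.3% of all 32851 promoters of that length. The AP-1 motif was found in 1 of 3, 2 of 15 and 1 of 9, beside 7.81%. The motifs do not overlap in their letters, a match is a description of these letters only, and members with several promoters count once if any held the motif.

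Among the 13 focal adhesion components counted, 2 were lower in GMTMS-iCMs than in MICFs and 0 higher, beside 10.5% and 11.5% of all genes, so the share of lower components was near the background. Ptk2 (chromosome 15 from 73205102 to 73423280) encodes FAK, the kinase that signals from clustered integrins. It had an FPKM of 5.08 in MICFs and 1.61 in GMTMS-iCMs, against 5.43 in the library labelled GMTMM, 3.15-fold lower in GMTMS-iCMs than in MICFs (interval 2.67 to 3.72, difference -1.13). Parva (chromosome 7 from 112427505 to 112591692) encodes alpha-parvin, which ties ILK to actin. Its FPKM was 11.97, 3.38 and 14.3, 3.54-fold lower in GMTMS-iCMs (interval 3.14 to 4.00, difference -1.60). In both genes GMTMS-iCMs alone were low.

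The paralogs that blood cells use went differently from those of adherent cells. Fermt2 (kindlin-2), the kindlin of most adherent cells, had an FPKM of 19.6 in MICFs and 12.4 in GMTMS-iCMs, against 38.7 in the library labelled GMTMM, with differences of -0.87 and 0.63 from MICFs. Fermt3 (kindlin-3), its blood-cell counterpart, had an FPKM of 54.2, 77.8 and 38.9, which is 1.43-fold higher in GMTMS-iCMs than in MICFs (interval 1.35 to 1.53). After quantile normalization its difference was -0.03, and the sign turned positive in 4 of 5 other scalings. Fermt3 made up 73.5% of kindlin FPKM in MICFs and 86.3% in GMTMS-iCMs, against 50.2% in the library labelled GMTMM. The deposited gene length of Fermt3 was 2587 bases, whereas its exons in the annotation GENCODE M21 covered 5784. Its FPKM level and this share are therefore uncertain. By counts its share was 58.0%, 75.8% and 33.4%, so which kindlin led in the library labelled GMTMM depended on the measure. Parvg (gamma-parvin), the parvin of blood cells, had an FPKM of 10.6, 11.6 and 5.54 and made up 28.8%, 38.6% and 17.2% of parvin FPKM, against 32.4%, 11.3% and 44.4% for Parva. Parvb (beta-parvin), found in muscle among other tissues, had an FPKM of 14.4, 15.04 and 12.3 and was nearly level.

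**Figure D4:**
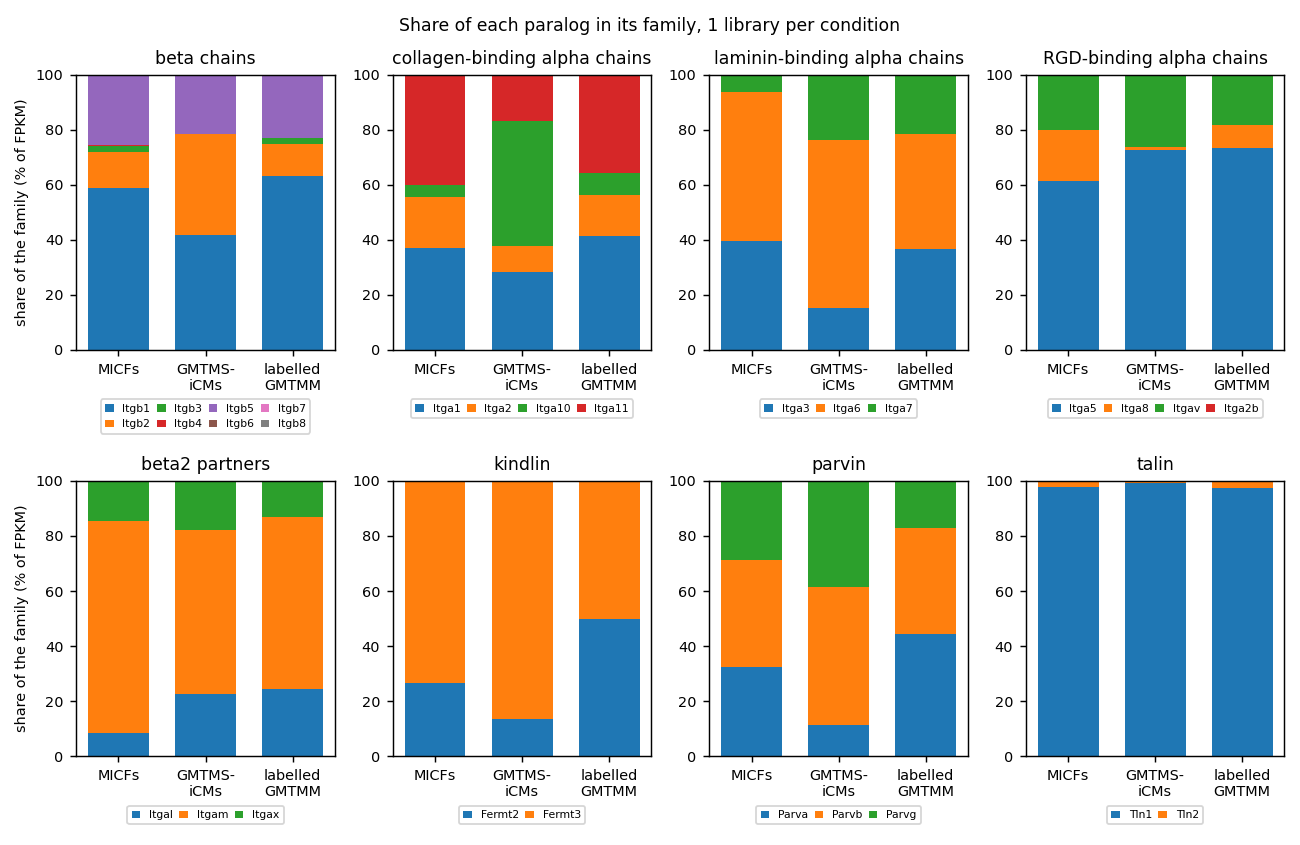
Share of each paralog in the summed FPKM of its family, in percent, with 1 bar for each of the 3 libraries. In GMTMS-iCMs Itgb2 takes 36.6% of the beta chains, Itga10 45.7% of the collagen-binding alpha chains and Fermt3 86.3% of the kindlins, each above its share in the other libraries. The FPKM levels of Itga10 (shared exons) and Fermt3 (gene length) are uncertain. By counts their shares in GMTMS-iCMs were 25.9% and 75.8%, and Itga1 led the collagen-binding chains with 57.3%.

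The remaining components stayed within the limit in both comparisons with MICFs after quantile normalization. Pxn (paxillin), a scaffold for FAK, came nearest, with an FPKM of 16.9 in MICFs and 42.2 in GMTMS-iCMs, against 26.9 in the library labelled GMTMM and a difference of 0.95 in GMTMS-iCMs, which passed the limit in 3 of 5 other scalings (range 0.84 to 1.32). Tln1 (talin-1), which activates integrins, had an FPKM of 63.9, 76.1 and 48.0 and took 97.9%, 99.3% and 97.4% of talin FPKM. Its difference in GMTMS-iCMs was -0.35 and turned positive in 3 of 5 other scalings. Tln2 (talin-2), the talin enriched in striated muscle, had 368, 88 and 279 counts and an FPKM 2.70-fold lower in GMTMS-iCMs than in MICFs (interval 2.13 to 3.45). Its difference of -0.56 was within the limit but passed it in 3 of 5 other scalings (range -1.79 to -0.56).

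Vcl (vinculin), which reinforces adhesions under tension, had an FPKM of 18.9 in MICFs and 16.4 in GMTMS-iCMs, against 24.7 in the library labelled GMTMM. Of its exon bases, 25.5% are shared with Ap3m1 on the opposite strand, and how reads were assigned by strand is not given in the sources used here. Lims1 and Lims2, which encode the PINCH adaptors of ILK, had an FPKM of 27.4, 23.0 and 30.2, and of 3.58, 3.04 and 4.96. Zyx (zyxin), recruited to strained actin, had an FPKM of 34.7, 37.0 and 37.1, the most even of these genes. Ilk, the integrin-linked kinase, had only 16, 8 and 25 counts, and exons of Taf10 and Rrp8 on the opposite strand cover 89.7% of its exon bases, so its level could not be read from these tables.

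The library labelled GMTMM differed from MICFs in few members. Of the 33 counted, 2 were higher (Itgal and Itga7) and 0 were lower, beside 8.07% and 4.69% of all genes, so the share of higher members was near the background and that of lower members under it. With a pseudocount of 0.1, 4 members were higher and 2 lower, beside 11% and 8.4% of all genes, so both shares stayed near the background or under it. The matrix-binding chains had a median of 0.04, the leukocyte chains 0.24 and the focal adhesion components 0.02, beside -0.09 over all genes counted. Both comparisons share the MICFs library. With library totals the split of members was 3 higher and 2 lower, and that of all genes 7.18% higher and 10.6% lower. Without quantile normalization it was 3 and 0 members, beside 9.26% and 3.36% of all genes. Of the counted members within the limit, Itga5 passed it in 4 of 5 other scalings, Itga4 in 3, Itga10 and Itgb8 in 2 and Parvg in 1.

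Both transduced libraries were sorted by the same reporter, and their comparison left out the MICFs. In GMTMS-iCMs, 3 members were higher (Itga4, Itgax and Itgb2) and 10 were lower (Itga1, Itga2, Itga3, Itga8, Itga11, Itgb3, Itgb8, Ptk2, Parva and Fermt2) than in the library labelled GMTMM. The background was 8.29% higher and 11.1% lower, so the share of higher members was near it and the share of lower members above it. Itga11 was 11.6-fold lower in FPKM (interval 8.16 to 17.1), Itgb3 9.22-fold (interval 7.16 to 12.04), Itga8 8.76-fold (interval 6.95 to 11.2) and Itga1 8.01-fold (interval 6.93 to 9.31). Itga4 was 4.71-fold higher (interval 4.07 to 5.46), Itgax 3.01-fold (interval 2.52 to 3.61) and Itgb2 2.67-fold (interval 2.54 to 2.82). All 13 calls passed the limit in 5 of 5 other scalings, which are not 5 separate checks. The median difference was -0.44 for the matrix-binding chains, 0.95 for the leukocyte chains and -0.39 for the focal adhesion components, beside 0.10 over all genes counted. Macrophage markers were higher in GMTMS-iCMs in 5 of 13 genes (Ptprc, Mrc1, Adgre1, Csf1r and Cd68, median 0.97), and fibroblast markers were lower in 7 of 7 (median -3.40). Their part in these differences was not tested either. With DESeq2 size factors 6 members were higher and 11 lower, beside 11.5% and 14.7% of all genes, and with library totals 3 were higher and 13 lower, beside 6.09% and 14.6%.

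**Figure D5:**
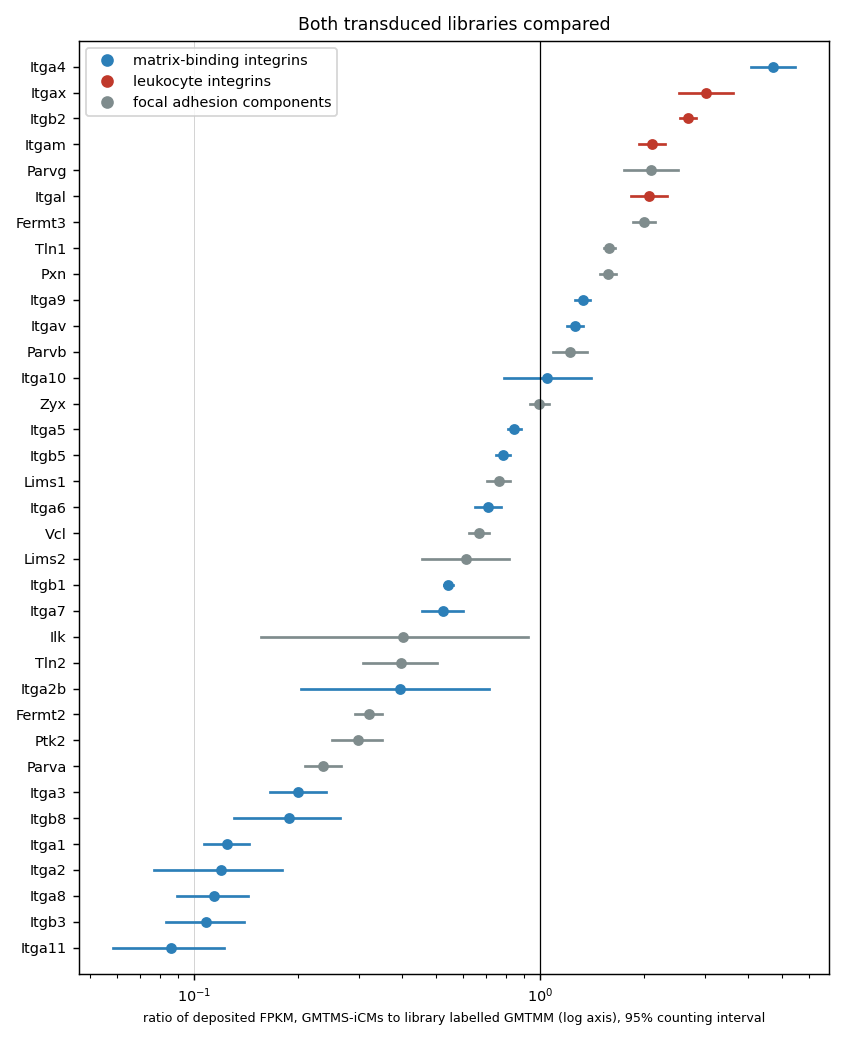
Ratio of deposited FPKM in GMTMS-iCMs to the library labelled GMTMM (log axis, bars are 95% counting intervals) for members with over 3 counts in both libraries, ordered by the ratio and coloured by class. Itga4 (4.71) is the highest and is followed by Itgax and Itgb2, and Itga11 with Itgb3, Itga8, Itga2 and Itga1 form the low end.

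Other genes of the adhesion machinery, a list of 35 genes outside the set, all passed the expression minimum. In GMTMS-iCMs 3 were higher than in MICFs and 8 lower, beside 11.5% and 10.5% of all genes, with a median of -0.28. The share of higher genes was thus near the background or under it, and the share of lower genes was above it. Itgb1bp2 encodes melusin, a muscle protein that binds the tail of beta1, and its counts were 3 in MICFs and 109 in GMTMS-iCMs, against 59 in the library labelled GMTMM. The kinases Src (difference 1.98) and Ptk2b (1.64), the latter a relative of FAK known as Pyk2, were the other higher genes. The lowest were Cav1 (-3.89), the coat protein of caveolae, and Tns2 (-2.34), a tensin that binds beta chains, followed by Tgfb1i1 (-1.38), a relative of paxillin, and Flna (-1.34), the actin crosslinker filamin A. The library labelled GMTMM had 2 higher (Itgb1bp2 and Src) and 0 lower, beside 8.07% and 4.69% of all genes, with a median of -0.14.

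Of 18 ligand genes, 16 passed the minimum, and the counts below stand beside the same shares of all genes. In GMTMS-iCMs 2 of the 16 were higher and 9 lower, beside 11.5% and 10.5% of all genes. The share of higher ligands was thus near the background and that of lower ligands above it. The higher ones were Icam1 (3.11), the ligand of alphaL and alphaM with beta2, and Vcam1 (1.18), the ligand of alpha4 with beta1. Of the 9 lower, the lowest were Icam2 (-3.79), Tnc (-3.78), the tenascin bound by alpha9, Nid1 (-3.55), a basement membrane linker, and Fn1 (-3.30), which encodes fibronectin. In the library labelled GMTMM 4 were higher (Icam1 by 3.36, Vcam1 by 2.55, the matricellular Thbs1 by 2.17 and Vtn, which encodes vitronectin, by 1.52) and 0 were lower. Beside 8.07% and 4.69% of all genes, the share of higher ligands was above the background and that of lower ligands under it. Icam1 thus stood above MICFs in both transduced libraries, with 1048, 8149 and 11510 counts in the 3 libraries, as did its receptor chain Itgal.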

How the data were processed

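RNA-seq of 3 libraries, 1 for MICFs and 1 for each cocktail, was analysed. The authors deposited raw counts per gene and FPKM per gene for 54532 genes. The submitters' processing notes name HISAT2 2.0.5 and the build mm9, but the coordinates of 38 of 39 members equalled GENCODE M21 on GRCm38. The counting tool is not given, nor is it known how strand and reads shared by genes were treated, in the sources used here. The column for MICFs carries another abbreviation and was matched by elimination, since the other columns name the cocktails. The limit that a count of 0 allows is 3 counts, or 0.253, 0.282 and 0.252 CPM in the 3 libraries.

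The deposited FPKM were quantile-normalized over the 3 libraries, with ties averaged, and transformed as log2 (value + 1), and a difference over 1 was called. Members were counted over genes with a mean FPKM of at least 1. All 39 members are named, and from other lists up to 4 genes past the limit in each direction, with Sall4 and Mesp1 for the labels. Beyond this, Cd3e, Cd8a, Gp9, Gp6, Csf3r, S100a9, Ly6g, Retnlg, Epcam, Krt5, Adgre1, Csf1r, Mrc1, Cd68 and Col1a1 were named after their values were seen. Gp1ba, Ppbp, Krt8 and Cdh1 passed the limit in no comparison and were also named outside that rule. Members and lists were chosen with earlier results of these data known. Alternatives were other scalings (TMM of edgeR 4.0.16, size factors of DESeq2 1.42.0, library totals, no quantile normalization, log2 first), a pseudocount of 0.1, other filters, a limit of 2 and counts in place of FPKM. Exon overlap was measured on GENCODE M21. The steps, run in Python 3.11.15, pandas 2.3.3, SciPy 1.17.1 and R 4.3.3, were tested on simulated data.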

Additional observations from a re-analysis of the deposited data

Results flagged for a closer look

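For 7 members the transduced libraries lay on opposite sides of MICFs, in FPKM beyond the counting interval and on the quantile-normalized scale. Whether the effects differ was not tested, since each comparison rests on 1 library per group and both use the same MICFs library. The differences from MICFs, first in GMTMS-iCMs and then in the library labelled GMTMM, were -1.74 and 0.406 for Itga1, -2.23 and 0.11 for Itga11, -0.306 and 0.762 for Itgb8, -0.461 and 0.0828 for Vcl, -1.60 and 0.0722 for Parva, and -0.872 and 0.634 for Fermt2. Itga4 had the opposite order, with 0.886 in GMTMS-iCMs against -0.812 in the library labelled GMTMM. The positive values of Itga11 and Parva turned negative with library totals.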

How the results depend on the processing

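No called member changed sign under 5 other scalings, of which log2 before quantile normalization nearly repeats the quantile-normalized values. Of the called members, 11 of 15 (GMTMS-iCMs minus MICFs), 2 of 2 (the library labelled GMTMM minus MICFs) and 13 of 13 (GMTMS-iCMs minus the library labelled GMTMM) passed the limit under all 5. The exceptions were Itgam and Itgav with library totals, and Itgb1 and Itgb5. The causes of the changes below were not tested.

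For GMTMS-iCMs minus MICFs, the 4 higher members became 7 without quantile normalization, 8 with TMM, 8 with DESeq2 size factors, 2 with library totals and 1 with a limit of 2, which also left 4 of the 11 lower ones. For the library labelled GMTMM minus MICFs, the 2 higher members became 4 with a pseudocount of 0.1, 5 with TMM, 5 with DESeq2 size factors and 0 with a limit of 2, and the 0 lower ones became 2 with a pseudocount of 0.1, 1 with TMM, 1 with DESeq2 size factors and 2 with library totals. Between the transduced libraries, the 3 higher members became 6 with a pseudocount of 0.1, 5 with TMM, 6 with DESeq2 size factors and 0 with a limit of 2, which left 4 of the 10 lower ones.

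The median of the matrix-binding chains in GMTMS-iCMs minus MICFs was -0.39 without quantile normalization, -0.73 with TMM, -0.64 with DESeq2 size factors, -1.12 with library totals and -1.17 over genes with a mean FPKM of at least 1. In the library labelled GMTMM minus MICFs it was 0.21 with TMM, 0.24 with DESeq2 size factors and -0.071, the other sign, with library totals. Between the transduced libraries it was -0.93 with a pseudocount of 0.1, -0.99 with TMM, -0.93 with DESeq2 size factors, -1.06 with library totals and -0.81 with the mean FPKM filter. The median of the leukocyte chains in GMTMS-iCMs minus MICFs was 1.32 without quantile normalization, 1.27 with TMM, 1.36 with DESeq2 size factors and 1.40 with the mean FPKM filter, and between the transduced libraries 1.10 with a pseudocount of 0.1, 1.19 with TMM, 1.25 with DESeq2 size factors and 1.15 with that filter. The median of the focal adhesion components was -0.14 without quantile normalization, -0.22 with DESeq2 size factors and -0.53 with library totals in GMTMS-iCMs minus MICFs, and -0.65 with library totals between the transduced libraries. In the library labelled GMTMM minus MICFs it took the other sign, -0.18 with library totals and -0.019 with the mean FPKM filter. Another 54 medians, 49 counts of members and 401 single differences moved by less than the counting interval or 1.5 times, and 340 single differences moved by more. With counts in place of FPKM, 39 of 93 paralog shares moved by over 1.5 times.

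Leaving the library labelled GMTMM out of the normalization, and leaving out the 4 members that share over 20% of their exon bases, were chosen after seeing the data. They gave 4 higher and 11 lower, and 3 higher and 11 lower, members in GMTMS-iCMs minus MICFs. No paired analysis was possible because each group had 1 library. With 1 library per group, none could be left out in turn, and intervals cover counting error only.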
